A study of Mus musculus with 8 samples.

Results

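The dual-specificity MAP kinase phosphatases Dusp1, Dusp2, Dusp3, Dusp4, Dusp6, Dusp10, Dusp14 and Dusp16 were followed in mouse Sertoli cells exposed to bisphenol A (BPA). The members were all probe sets that the platform annotation gives exactly 1 of these 8 symbols. They came to 9 probe sets of 7 genes, out of 22690 probe sets on the array; Dusp4 was not analysed here. The cells were TTE3, 1 Sertoli cell line derived from mice transgenic for a temperature-sensitive SV40 T-antigen, and every group, the controls included, carried that immortalizing antigen. In the testis, Sertoli cells line the seminiferous tubules and nurse the germ cells. All groups were labelled with 0.2 mM BPA, a plastics monomer with weak estrogenic activity, for 0, 3, 6 or 12 h, with 2 one-colour Affymetrix arrays per time and 8 in all.

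MAP kinases are the last kinases of tiered cascades that carry growth factor signals (the ERK branch) and stress signals (the JNK and p38 branches) to the nucleus. The kinases of these branches are active only while both a threonine and a tyrosine of their activation loop carry phosphate, and dual-specificity phosphatases remove both. Several of these phosphatases are themselves early transcriptional targets of the cascades, so their mRNA is a known arm of negative feedback. They differ in place and preference: Dusp1, Dusp2 and Dusp4 are inducible nuclear enzymes, Dusp6 is cytoplasmic and selective for ERK, Dusp10 and Dusp16 prefer JNK and p38, and Dusp3 and Dusp14 are small atypical members without the amino-terminal kinase-binding domain.

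The arrays had been brought to a common level before deposit, with median signals of 150.85 to 170.05. Nothing in the labels ties the 2 arrays of a time to separate cultures, so the p-values cover the spread of these samples only, which may be technical, and precision is limited by the small number of arrays. Untreated cells kept for 3, 6 or 12 h were not analysed here, so BPA exposure and time in culture cannot be told apart. Signals are linear probe set values, given as mean ± SD of 2 arrays; changes are on the log2(signal + 7.9) scale, given ± SE from limma, and understate the change of low genes. A gene was called at a Benjamini-Hochberg adjusted p under 0.05 over the 8675 genes tested, and all 7 measured members passed the filter on low signals and were tested. Over all genes 742 were higher and 306 lower at 3 h, 1455 and 844 at 6 h, and 1810 and 1521 at 12 h. With a common median set for all arrays instead, the split was 463 higher and 646 lower at 3 h, 1054 and 1200 at 6 h, and 1740 and 1534 at 12 h, and the median change of all genes moved from 0.06 to -0.07 at 3 h and from 0.07 to -0.04 at 6 h.

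Dusp6, Dusp10 and Dusp16 rose within 3 h and then fell, and by 12 h Dusp1, Dusp10 and Dusp16 were below their starting level. At 3 h 3 of the 7 members were higher and none lower, beside 8.55% and 3.53% of all genes tested. At 6 h 1 was higher and 3 were lower, beside 16.8% and 9.73% of all genes. At 12 h none was higher and 4 were lower, beside 20.9% and 17.5%. From 3 to 6 h none of the 7 rose and 4 fell, where 0.565% of all genes rose and 0.553% fell. From 6 to 12 h none rose and 2 fell, beside 0.922% and 3.85% of all genes, and from 3 to 12 h none rose and 4 fell, beside 9.52% and 12.4%. Without any 1 of the arrays compared 453 to 551 genes were called at 3 h in place of 1048, and the 3 members remained called. The F test over the time course called 4 members, Dusp1, Dusp6, Dusp10 and Dusp16 (35.8% of all genes were called). The median change of the 7 was 0.43 at 3 h, -0.05 at 6 h and -0.39 at 12 h, beside 0.06, 0.07 and 0.06 over all genes. Comparisons with 0 h share the 0 h arrays, and steps from 3 h share the 3 h arrays. Fewer cells of a type and less RNA per cell cannot be told apart in these samples.

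**Figure D1:**
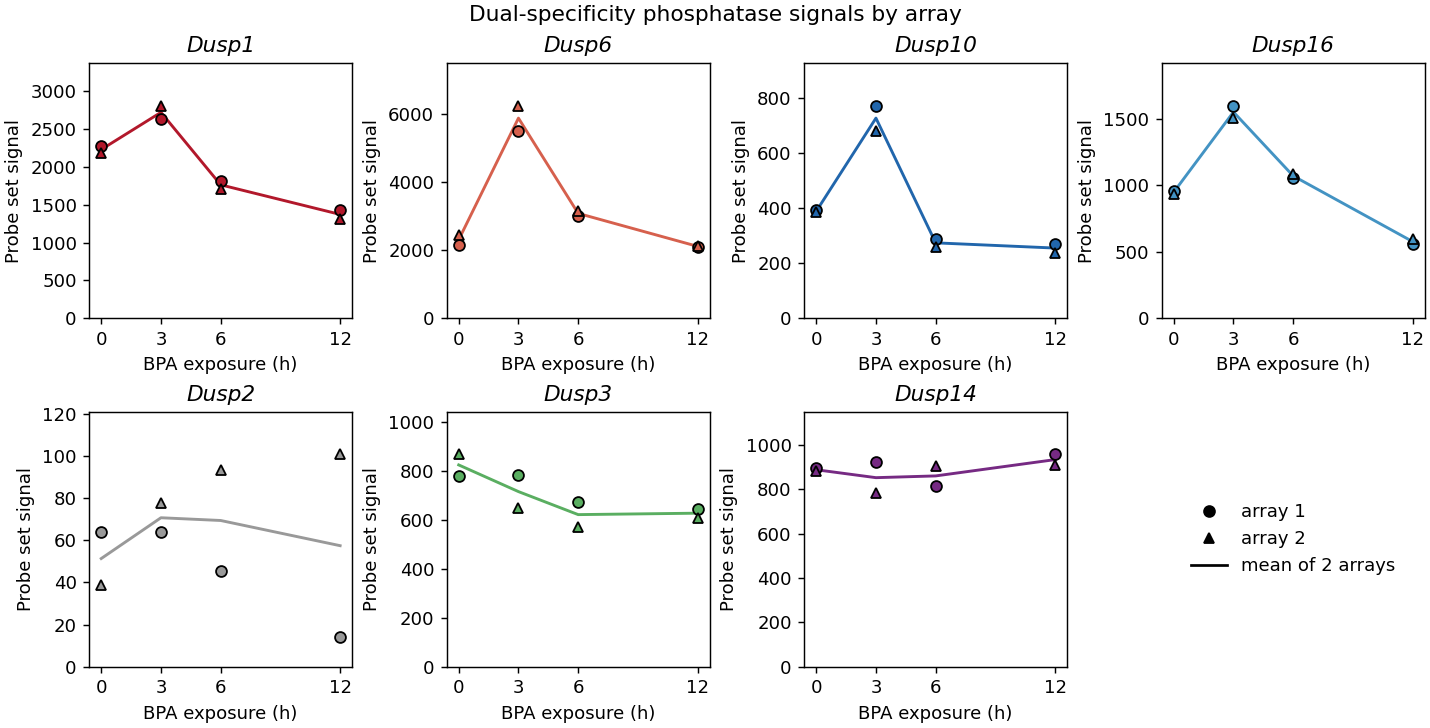
Probe set signal (linear axis from 0, one panel per gene) against hours of BPA for the probe set that stands for each of the 7 genes; circles and triangles are the 2 arrays of each time and the line joins their means. Dusp6 reached 5518.3 and 6255.8 at 3 h from 2159.2 and 2455.7 at 0 h, while Dusp14 stayed between 784 and 958.3 on the 8 arrays.

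The 250 bases upstream of the annotated start of the 4 genes called by the F test are shown because the time course rests on these members; they are RefSeq promoter sequences of build GRCm38.p6, a table that held an entry for each of the 7 measured members. The windows are chr17:26508473-26508722 (minus strand) for Dusp1, chr10:99262981-99263230 (plus strand) for Dusp6, chr1:184034131-184034380 (plus strand) for Dusp10 and chr6:134792629-134792878 (minus strand) for Dusp16. Capitals mark the cAMP response element TGACGTCA or its 5-base core TGACG, which lies within it, and the CCAAT box (CCAAT), all on either strand.
Dusp1: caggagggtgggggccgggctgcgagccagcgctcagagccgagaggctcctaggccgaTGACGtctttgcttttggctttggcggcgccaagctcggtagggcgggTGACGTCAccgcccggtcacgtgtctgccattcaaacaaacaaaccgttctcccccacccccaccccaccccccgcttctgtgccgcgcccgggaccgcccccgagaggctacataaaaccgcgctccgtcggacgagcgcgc
Dusp6: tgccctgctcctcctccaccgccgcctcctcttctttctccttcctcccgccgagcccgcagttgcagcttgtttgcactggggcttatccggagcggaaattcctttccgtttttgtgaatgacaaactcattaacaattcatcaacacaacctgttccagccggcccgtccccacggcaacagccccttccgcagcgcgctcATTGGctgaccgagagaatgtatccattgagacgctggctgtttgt
Dusp10: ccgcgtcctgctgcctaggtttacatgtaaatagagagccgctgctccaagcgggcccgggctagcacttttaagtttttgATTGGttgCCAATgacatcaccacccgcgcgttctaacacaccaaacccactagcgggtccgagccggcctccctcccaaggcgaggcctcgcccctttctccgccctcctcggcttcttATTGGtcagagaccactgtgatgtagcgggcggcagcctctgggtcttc
Dusp16: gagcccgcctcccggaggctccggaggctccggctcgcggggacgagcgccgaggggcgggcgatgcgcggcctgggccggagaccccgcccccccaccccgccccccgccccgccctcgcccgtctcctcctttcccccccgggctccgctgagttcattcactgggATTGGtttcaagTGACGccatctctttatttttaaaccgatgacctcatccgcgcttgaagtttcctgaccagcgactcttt
The whole cAMP response element was found in the Dusp1 window alone of the 7 members, 143 to 136 bases before the start, and in 1.55% of all 32851 promoters of that length. The core was found in 2 of the 7 (Dusp1 and Dusp16; 17.8% of all promoters) and the CCAAT box in 4 of the 7 (Dusp3, Dusp6, Dusp10 and Dusp16; 33.8%). The AP-1 letters TGANTCA were in none of the 7 windows (6.75% of all promoters), and the EGR letters GCGGGGGCG in that of Dusp2 (2.57%). A match describes letters and is not a bound site.

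Dusp1, the classical nuclear phosphatase that is switched on by growth factors and stress and acts on p38, JNK and ERK, had its highest signals at 3 h and its lowest at 12 h. The arrays read 2277.5 and 2185.1 at 0 h, 2634.3 and 2812.8 at 3 h, 1818.7 and 1709.6 at 6 h, and 1436.2 and 1308.6 at 12 h. Both 3 h arrays lay above both 0 h arrays, and all 6 h and 12 h arrays lay below them. The change at 3 h was 0.29 ± 0.11 and did not pass the test (adjusted p = 0.108). Dusp1 fell below its starting level at 6 h by 0.34 ± 0.11 (adjusted p = 0.0337) and at 12 h by 0.70 ± 0.11 (adjusted p = 0.000226). Its fall from 3 to 12 h was -0.99 ± 0.11 (adjusted p = 5.45e-05), of which -0.62 ± 0.11 lay between 3 and 6 h (adjusted p = 0.0128). The times thus ordered as 12, 6, 0 and 3 h from low to high. Neither the pair of 12 and 6 h (adjusted p = 0.0745) nor that of 0 and 3 h passed the test, though the arrays of each pair did not overlap. With the replicate number as a block the step from 6 to 12 h passed (adjusted p = 0.0454). The call at 6 h was lost without either 0 h array (adjusted p = 0.183 and 0.112) or without array 2 at 6 h (0.107), and also after quantile normalization (0.0633), in a fit of only the 2 groups (0.0562) and without the intensity trend (0.0858); the step from 3 to 6 h was lost without either 3 h array (0.0832 and 0.143) and without the trend (0.126).

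Dusp2, a nuclear phosphatase best known from activated immune cells, was close to the lower end of the signals kept. Its arrays read 63.7 and 38.9 at 0 h, 63.8 and 77.5 at 3 h, 45.2 and 93.5 at 6 h, and 14 and 100.8 at 12 h. The 3 h arrays lay just above those of 0 h, the groups overlapped at 6 and 12 h, and the 12 h arrays spanned the whole range of the other times. No change of Dusp2 was called in any of the 6 comparisons; at 12 h it was -0.25 ± 0.64 (adjusted p = 0.8), and it was 0.91 without array 1 at 12 h.

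Dusp6, the cytoplasmic phosphatase that dephosphorylates ERK and is a standard readout of ERK signalling, rose most of the 7 at 3 h. The arrays read 2159.2 and 2455.7 at 0 h, 5518.3 and 6255.8 at 3 h, 3019.4 and 3145.6 at 6 h, and 2086.9 and 2136.9 at 12 h. The mean signal at 3 h was 2.55 times that at 0 h, both 6 h arrays still lay above both 0 h arrays, and both 12 h arrays lay just below them. On the log2 scale Dusp6 rose by 1.35 ± 0.11 at 3 h (adjusted p = 3.22e-06), ranking 112 among the 8675 genes from the largest rise. It was still higher at 6 h, by 0.42 ± 0.11 (adjusted p = 0.0135), and at 12 h the change was -0.12 ± 0.11 (adjusted p = 0.415). From 3 to 6 h Dusp6 fell by 0.93 ± 0.11 (adjusted p = 0.00163), and from 6 to 12 h by 0.54 ± 0.11 (adjusted p = 0.0143). The times ordered as 12, 0, 6 and 3 h, and among neighbours the pair of 12 and 0 h did not pass the test. The call at 6 h was lost with a common array median (adjusted p = 0.0589), without array 1 at 0 h (0.149) and without the intensity trend (0.059). The steps from 3 to 6 h and from 6 to 12 h were lost without the trend (0.0702 and 0.0971), and the later one also in a fit of only the 2 groups (0.0543) or without array 1 at 12 h (0.0858).

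**Figure D2:**
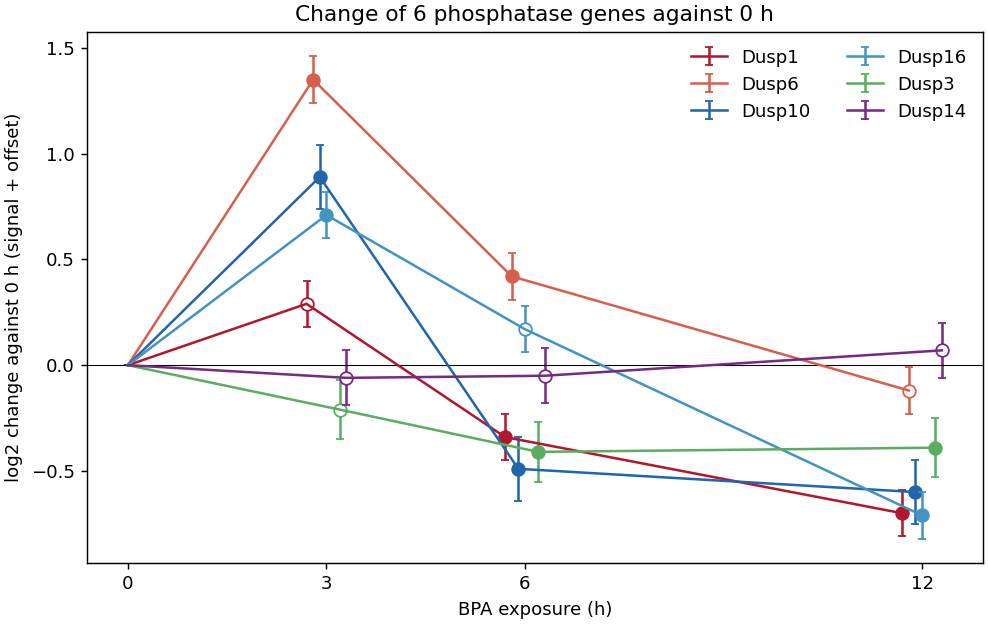
The log2 change against 0 h (y axis, log2 of signal + offset) at 3, 6 and 12 h of BPA (x axis, points set slightly apart) for 6 of the 7 genes; bars are SE from the model, filled points passed an adjusted p under 0.05 and open points did not. Dusp6, Dusp10 and Dusp16 peaked at 3 h (1.35, 0.89 and 0.71), and Dusp2, with SE of 0.64, is left out.

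Dusp10, a phosphatase selective for p38 and JNK, had the largest fitted fall of the 7 from 3 to 6 h. The arrays of the probe set that stands for it read 392.3 and 385 at 0 h, 773.2 and 682.1 at 3 h, 288.9 and 258.9 at 6 h, and 271.1 and 238.7 at 12 h. The 3 h arrays were both far above 0 h, and all 6 and 12 h arrays were below it. Dusp10 rose by 0.89 ± 0.15 at 3 h (adjusted p = 0.00201), to 1.87 times the mean signal at 0 h. It was lower than at 0 h by -0.49 ± 0.15 at 6 h (adjusted p = 0.0279) and by -0.60 ± 0.15 at 12 h (adjusted p = 0.007). From 3 to 6 h it fell by 1.38 ± 0.15 (adjusted p = 0.000892), the rank 19 fall among the 8675 genes, and passed without the intensity trend too. From 6 to 12 h the change was -0.10 ± 0.15 (adjusted p = 0.768), so in the order 12, 6, 0 and 3 h only the lowest pair of neighbours did not pass the test. The 6 h call was lost without either 0 h array (adjusted p = 0.129 and 0.109) or array 2 at 6 h (0.115), and the 12 h call without array 2 at 12 h (0.0516).

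A second Dusp10 probe set, of far lower signal, read 42 and 79.2 at 0 h, 109.1 and 105.8 at 3 h, 18.7 and 38.9 at 6 h, and 43.2 and 7.7 at 12 h. It too was highest on both 3 h arrays. In the fit of all 15838 probe sets that passed the filter its change was 0.81 ± 0.61 at 3 h (adjusted p = 0.483) and -2.03 ± 0.61 from 3 to 12 h (adjusted p = 0.0391). With the mean of both probe sets Dusp10 was not called at 3 h (0.85, adjusted p = 0.0965) or 6 h (-0.70, adjusted p = 0.116).

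Dusp16, a phosphatase that shuttles between nucleus and cytoplasm and prefers JNK and p38, was highest at 3 h and lowest at 12 h. The arrays read 959.6 and 938.1 at 0 h, 1601.2 and 1504.8 at 3 h, 1054.8 and 1088 at 6 h, and 554.8 and 598.6 at 12 h. No array of one time overlapped those of another. Dusp16 rose by 0.71 ± 0.11 at 3 h (adjusted p = 0.00132), had a change of 0.17 ± 0.11 at 6 h (adjusted p = 0.297) and fell by 0.71 ± 0.11 at 12 h (adjusted p = 0.000297). The step from 6 to 12 h was -0.89 ± 0.11 (adjusted p = 0.00137) and the whole fall from 3 to 12 h was -1.42 ± 0.11 (adjusted p = 5.74e-06). In the order 12, 0, 6 and 3 h the pair of 0 and 6 h did not pass the test. The step from 3 to 6 h, -0.53 ± 0.11 (adjusted p = 0.043), was lost without any 1 of the 4 arrays compared (adjusted p = 0.0664 to 0.273), and also with a common array median (0.0589), without a filter (0.0537), with every probe set as a feature (0.0596), in a fit of only the 2 groups (0.103) and without the intensity trend (0.152).

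The atypical members Dusp3 and Dusp14 were not called by the F test (adjusted p = 0.098 and 0.782). Dusp3 (also called VHR), a small phosphatase of ERK and JNK that is expressed in many tissues, read 781.5 and 869.5 at 0 h, 783.5 and 649.3 at 3 h, 672.4 and 572.1 at 6 h, and 646.6 and 609.6 at 12 h. Its 6 and 12 h arrays lay below both 0 h arrays, and its 3 h arrays overlapped them. The changes were -0.21 ± 0.14 at 3 h (adjusted p = 0.395), -0.41 ± 0.14 at 6 h (adjusted p = 0.0492) and -0.39 ± 0.14 at 12 h (adjusted p = 0.0441). Both calls lay close to the threshold: each was lost in the fit of all probe sets (adjusted p = 0.0647 and 0.0562), without either 0 h array (0.101 and 0.266 at 6 h, 0.0795 and 0.24 at 12 h), and with the mean of both probe sets (-0.10 and -0.19). They were also lost without a filter (0.0655 and 0.0587), without the trend (0.101 and 0.0877), without either 12 h array for the later call (0.0886 and 0.161), and without array 2 at 6 h (0.218) or in a fit of only the 2 groups (0.0524) for the earlier one.

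A second Dusp3 probe set was not called lower at any time, and the probe sets of this gene disagree. It read 246.8 and 268.5 at 0 h, 302.5 and 220.9 at 3 h, 329.8 and 271.6 at 6 h, and 268.3 and 251.1 at 12 h, and its change was 0.21 ± 0.19 at 6 h (adjusted p = 0.489) and 0.01 ± 0.19 at 12 h (adjusted p = 0.973). Dusp14 (also called MKP6), a small phosphatase described in T cell signalling, read 893.8 and 882.4 at 0 h, 920.8 and 784 at 3 h, 815.8 and 904.8 at 6 h, and 958.3 and 909.4 at 12 h. Its groups overlapped at 3 and 6 h, and its changes were -0.06 ± 0.13, -0.05 ± 0.13 and 0.07 ± 0.13 at 3, 6 and 12 h (adjusted p = 0.804, 0.823 and 0.698). Probe sets of Dusp14 and Dusp16 carry the suffix _a_at, by which the maker marks sets that read several transcripts of 1 gene.

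**Figure D3:**
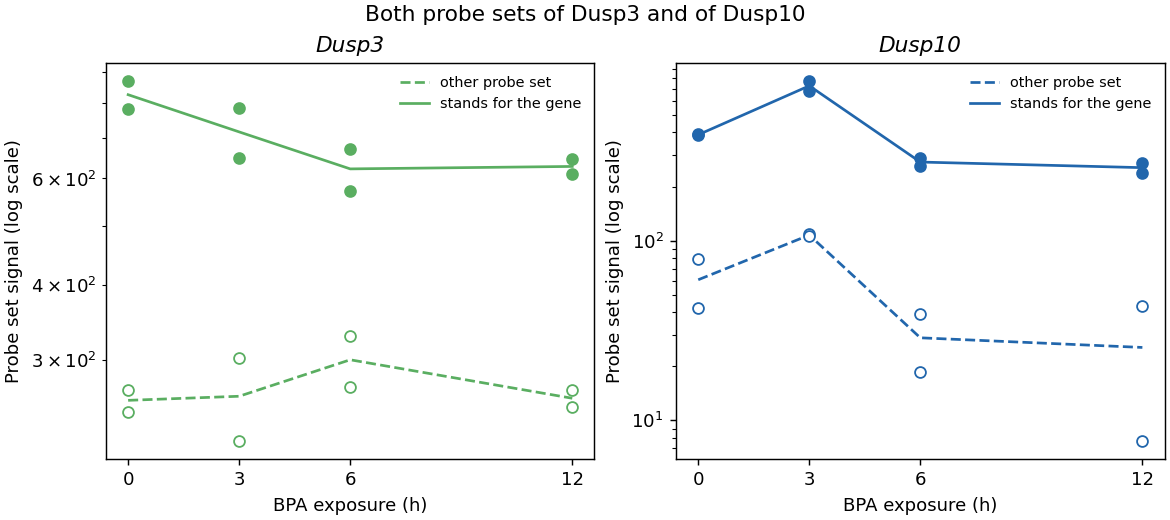
Signals (log axis) of both probe sets of Dusp3 (left) and of Dusp10 (right) against hours of BPA; filled points and solid lines are the probe set that stands for the gene, open points and dashed lines the other, with 2 arrays per time and lines through the means. Both Dusp10 probe sets were highest at 3 h, whereas the Dusp3 means at 6 h were 622 against 826 at 0 h for the first and 301 against 258 for the second.

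Ranks among all genes place the size of the falls. From 3 to 12 h Dusp6, Dusp10 and Dusp16 ranked 88, 85 and 98 among 8675 genes from the largest fall, and Dusp1 ranked 347. The falls of these 4 genes from 3 to 12 h were called under every alternative run and without each of the 4 arrays compared. The call at 3 h of Dusp6 and of Dusp16 was likewise never lost, and so was the 12 h call of Dusp1 and of Dusp16. The 4 genes kept the direction of each called change with a common array median and after quantile normalization. Few genes were called from 3 to 6 h: 97 of 8675, and only 6 without the intensity trend, of which 1 was a member (Dusp10). That count was 30 and 39 without array 1 or 2 at 3 h and 59 without array 1 at 6 h, with 2, 2 and 3 members called.

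**Figure D4:**
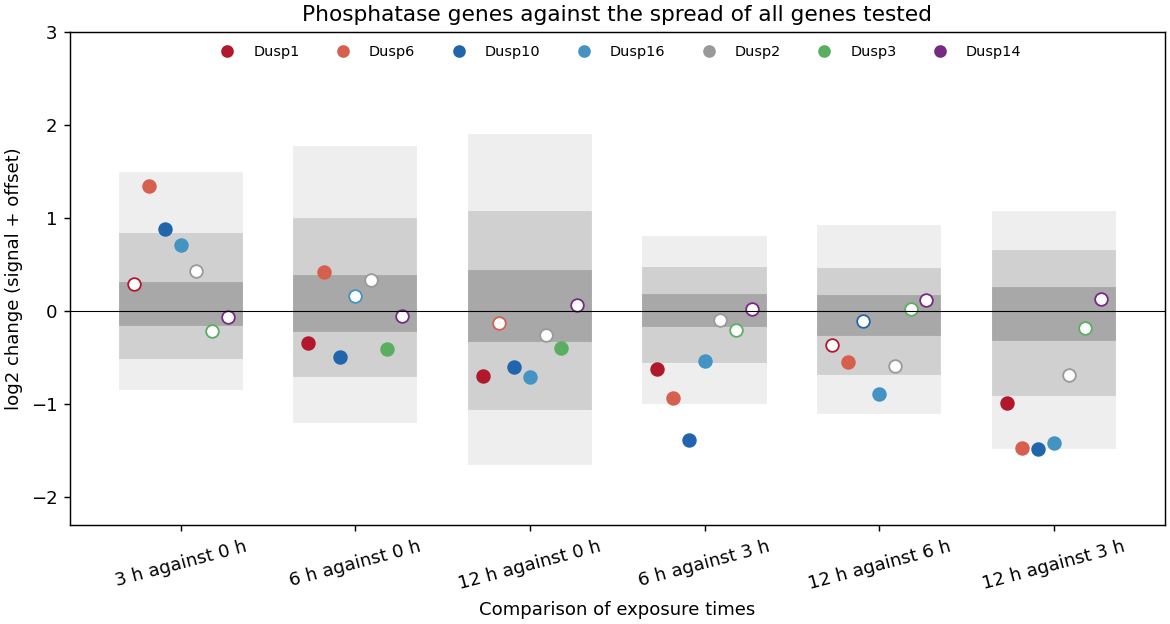
The log2 change of the 7 members (points; filled where adjusted p was under 0.05) in the 6 comparisons of times on the x axis, over bands that hold all 8675 genes tested between percentiles 25 and 75 (dark), 5 and 95 (middle) and 1 and 99 (light). From 3 to 6 h Dusp10 (-1.38) lay below the light band, whose lower edge was -0.98, and Dusp6 (-0.93) lay near that edge.

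No other dual-specificity phosphatase was called lower in any comparison. Of 13 with a probe set, 10 were tested. At 3, 6 and 12 h 1, 2 and 3 were higher and none was lower, with medians of 0.32, 0.29 and 0.29. Of all genes tested 8.55%, 16.8% and 20.9% were higher and 3.53%, 9.73% and 17.5% lower at these times. With 10 genes the counts lay near these shares. Dusp12, an atypical phosphatase with a zinc finger, read 183.7 and 172.6 at 0 h and 378.5 and 360.4 at 12 h, and rose by 0.78 ± 0.17, 0.97 ± 0.17 and 1.02 ± 0.17 at 3, 6 and 12 h (adjusted p = 0.00801, 0.000887 and 0.000331). Dusp11, which acts on the 5′ triphosphate of RNA rather than on MAP kinases, rose by 0.57 ± 0.11 at 12 h (adjusted p = 0.00151). Dusp19, a JNK pathway phosphatase, rose by 0.70 ± 0.21 at 6 h and 0.71 ± 0.21 at 12 h (adjusted p = 0.0236 and 0.0161), on a probe set of suffix _s_at that can bind other transcripts; its 6 h call was lost after quantile normalization (0.0561) and with a common array median (0.0584). Dusp7, Dusp8, Dusp13, Dusp18, Dusp22, Styx and Styxl1 were not called in any comparison, with changes between -0.45 (Styx) and 0.82 (Styxl1) at 6 h. Dusp9, Dusp15 and Dusp26 had mean signals of 16.1, 6.1 and 22.1 at 0 h and did not pass the filter.

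The MAP kinases, which include those these phosphatases act on, and the kinases that act before them were taken as separate lists. For these lists and those below, the shares of all genes tested were 8.55% higher and 3.53% lower at 3 h. They were 16.8% and 9.73% at 6 h, and 20.9% and 17.5% at 12 h. None of 8 MAP kinases tested was called at 3 h; 2 were higher and 1 lower at 6 h (2 and 2 with a common array median), and 2 higher and 2 lower at 12 h (median 0.33). Mapk14, which encodes p38 alpha, a substrate of Dusp1, Dusp10 and Dusp16, fell by 0.45 ± 0.15 at 6 h (adjusted p = 0.0387) and by 0.70 ± 0.15 at 12 h (adjusted p = 0.0023). Nlk, an atypical MAP kinase, fell by 1.13 ± 0.15 at 12 h. Mapk6, the gene of the atypical kinase ERK3, and Mapk7, that of ERK5, rose at 6 h by 0.61 ± 0.11 and 0.73 ± 0.17. The 2 higher at 12 h were Mapk6 (0.43 ± 0.11, adjusted p = 0.00731) and Mapk9 (0.51 ± 0.13, adjusted p = 0.00857). Mapk7 was not called then (0.22 ± 0.17, adjusted p = 0.333). Of 6 MAP kinase kinases none was called at 3 or 6 h and 2 were lower at 12 h, Map2k4, an activator of JNK (-0.64 ± 0.15), and Map2k2, an activator of ERK (-0.48 ± 0.14).

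Of 15 MAP kinase kinase kinases 2 were higher and none lower at 3 h, 4 and 0 at 6 h, and 3 and 4 at 12 h. Map3k14, the kinase NIK of the noncanonical NF-kB pathway, rose by 1.68 ± 0.18 at 3 h and 1.73 ± 0.18 at 6 h, and Map3k11, a kinase that feeds JNK, fell by 2.03 ± 0.22 at 12 h (adjusted p = 1.53e-05). Braf, the other kinase higher at 3 h, rose by 0.78 ± 0.22, 0.88 ± 0.22 and 0.86 ± 0.22 at 3, 6 and 12 h. The 3 h call of Braf was lost after quantile normalization and with a common array median. Map3k2 rose by 1.15 ± 0.33 at 6 h and 1.38 ± 0.33 at 12 h, and Map3k3 fell by 0.93 ± 0.18 at 12 h. The mean signal of Map3k2 at 0 h was low (45.1). It may have passed the filter only through its later signals, which would favour a call of higher. Of 5 MAPK-activated kinases 1, 2 and 2 were lower at 3, 6 and 12 h and 1 was higher at 12 h. Mknk2, a kinase of the cap-binding factor eIF4E, fell by 0.39 ± 0.12, 0.81 ± 0.12 and 0.91 ± 0.12, Rps6ka3, the ribosomal S6 kinase RSK2, fell by 0.85 ± 0.15 at 12 h, and Mapkapk5 rose by 0.48 ± 0.17 then. Among 9 scaffold and adaptor genes Arrb2, a beta-arrestin, rose at 6 and 12 h (0.46 ± 0.14 and 0.68 ± 0.14) and no other was called in the comparisons with 0 h. Mknk2 at 3 h and Mapkapk5 were not called after quantile normalization (adjusted p = 0.0901 and 0.0584), and Arrb2 at 6 h under neither other scaling (0.071 and 0.111); with a common array median 1 MAP kinase kinase kinase was higher and 1 lower at 3 h, and 3 and 1 at 6 h.

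Other phosphatases that act on MAP kinases include subunits of protein phosphatase 2A and metal-dependent phosphatases. Of 8 tested 1 was lower at 3 h, 3 lower and 1 higher at 6 h, and 3 lower and 1 higher at 12 h, with medians of -0.26, -0.19 and -0.39. Ppp2cb, a catalytic subunit of protein phosphatase 2A, fell by 0.42 ± 0.11, 0.52 ± 0.11 and 0.46 ± 0.11 at 3, 6 and 12 h. The other catalytic subunit gene, Ppp2ca, rose by 0.41 ± 0.10 at 12 h (adjusted p = 0.00615) and was the 1 called higher then. Ppp2r1b, a scaffold subunit of the same enzyme, fell by 0.58 ± 0.16 and 0.88 ± 0.16 at 6 and 12 h, and Ppm1b, a metal-dependent phosphatase, by 0.51 ± 0.14 and 0.59 ± 0.14. Ppm1d (Wip1), a p53 target that acts on p38, rose by 0.54 ± 0.17 at 6 h (adjusted p = 0.027). That call was lost after quantile normalization (0.0598) and with a common array median (0.0754), and that of Ppp2cb at 3 h after quantile normalization (0.0599). With a common array median 2 of the 8 were lower at 3 h, Ppm1b being gained (-0.54, adjusted p = 0.0207), and 4 were lower and none higher at 6 h.

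Known transcriptional outputs of ERK, listed without the members, included genes that were higher at 3, 6 and 12 h and others that were lower at 6 and 12 h. Of 17 tested 10 were higher and none lower at 3 h, 10 and 3 at 6 h, and 8 and 6 at 12 h. Their medians were 0.75, 0.61 and 0.27. The shares of all genes were 8.55% and 3.53%, 16.8% and 9.73%, and 20.9% and 17.5%. The 6 lower at 12 h were Spred2 (-1.31), Ccnd1 (-1.04), Emp1 (-0.86), Ier3 (-0.60), Plaur (-0.53) and Plat (-0.51). Ccnd1, Emp1 and Plaur were the 3 lower at 6 h (-0.41, -0.77 and -0.53). From 3 to 6 h 1 of the 17 fell, Spry2 (-0.69 ± 0.15, adjusted p = 0.0445), beside 0.553% of all genes. From 6 to 12 h 6 of the 17 fell and 1 rose, beside 3.85% and 0.922% of all genes. From 3 to 12 h 10 fell and 1 rose, beside 12.4% and 9.52%, with a median of -0.65 over that span. With a common array median 9 were higher and none lower at 3 h, and 8 and 4 at 6 h. Egr1, an early growth response transcription factor gene, was up by 3.74 ± 0.15 at 3 h and had a step of -0.43 ± 0.15 from 3 to 6 h that did not pass (adjusted p = 0.201), then fell by 0.79 ± 0.15 from 6 to 12 h (adjusted p = 0.00866). Its fall from 3 to 12 h was -1.22 ± 0.15 (adjusted p = 0.000118). Phlda1 and Fosl1, an AP-1 subunit gene, were up by 2.27 ± 0.15 and 2.05 ± 0.15 at 12 h, and their steps from 3 to 6 h were -0.07 ± 0.15 and 0.08 ± 0.15. Etv5, an ETS factor gene, was highest at 12 h (2.09 ± 0.20). Whether these steps differ from that of Dusp6 was not tested.

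**Figure D5:**
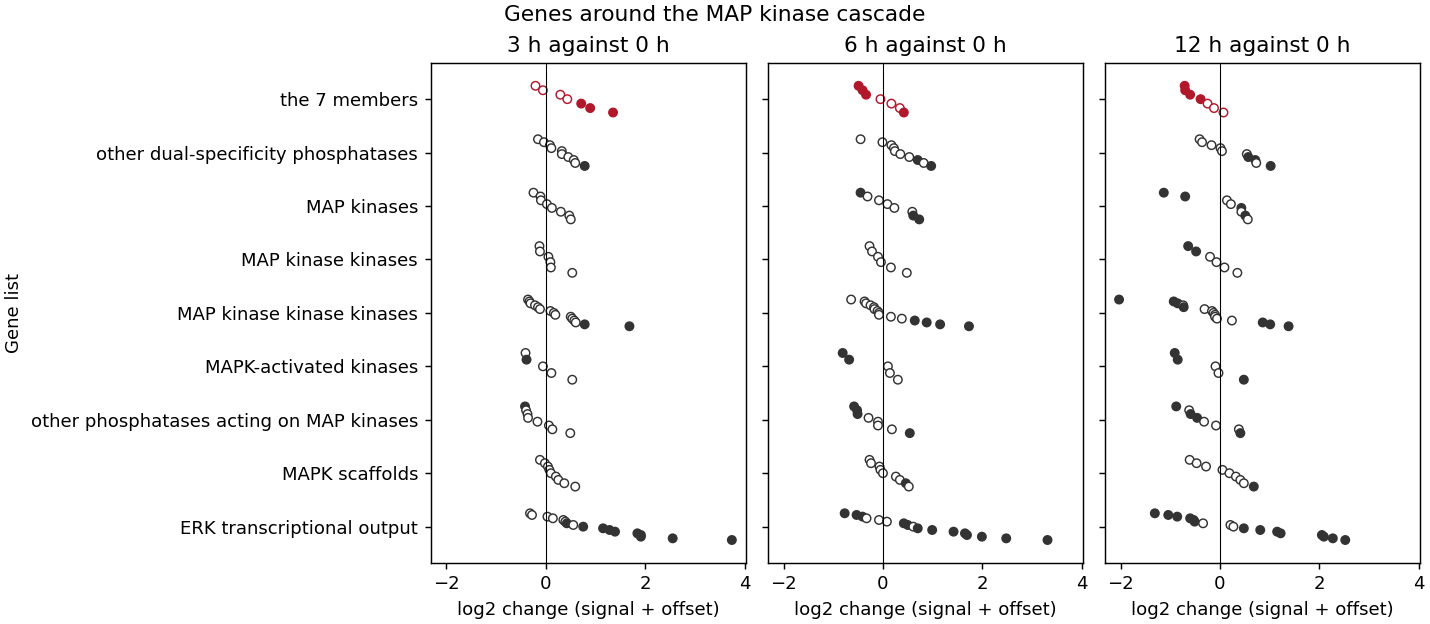
The log2 change against 0 h (x axis) at 3, 6 and 12 h for every tested gene of the lists named on the y axis, with the members in red; filled points passed an adjusted p under 0.05. At 12 h all called members lay below 0, whereas the ERK outputs ran from Spred2 (-1.31) to Egr1 (2.52).

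The genes whose log2 signals ran most like each of the 4 called members over the 8 arrays were found by Pearson correlation among all genes tested; the arrays share 4 times, so the values describe the shape alone. Dusp6 was most like Ska2, a spindle gene (0.964), Spry2, a feedback inhibitor of receptor tyrosine kinase signalling (0.962), and Ankrd1, an ankyrin repeat gene (0.961). Spry2 and Ankrd1 had changes of 1.39 and 1.62 at 3 h, 0.70 and 0.52 at 6 h, and -0.34 and -0.27 at 12 h. Dusp16 was most like Adamts1, a matrix metalloprotease gene (0.997), Ccn2, the connective tissue growth factor gene (0.986), and Col5a1, a collagen gene (0.980). Adamts1 and Ccn2 had wider swings, from 1.50 and 1.64 at 3 h to -1.59 and -1.80 at 12 h. Dusp1 was most like Rhob, a small GTPase gene (0.986), Cdk7, a kinase gene of transcription initiation (0.981), and Etfbkmt (0.981). Dusp10 was most like Hilpda, a lipid droplet gene (0.979), Hmmr (0.948) and Cables2 (0.943). Among the 4 members themselves the correlation ran from 0.738 (Dusp1 and Dusp6) to 0.915 (Dusp1 and Dusp10).

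Of 16 Sertoli cell markers on the array 10 passed the filter, among them Gata4, Wt1, Clu, Kitl, Krt18 and Nr5a1. Amh, Cldn11, Fshr, Dhh, Dmrt1 and Aard did not, with mean signals at 0 h of 7.1, 10.2, 49.25, 16.45, 22.7 and 12.5. The summed marker signal was 12338 to 12779 at 0 h, 11967 to 12566 at 3 h, 10025 to 10624 at 6 h and 8484 to 9360 at 12 h, and Clu, the highest of these, read 7650 at 0 h and 3409 at 12 h. By means of the 2 arrays, Clu alone fell by more than the sum did between 0 and 12 h. Other markers went the opposite way: Gata4 read 621.3 at 0 h and 872.5 at 12 h and was called higher at 12 h (0.50 ± 0.14, adjusted p = 0.0154), Krt18 read 1662 and 2164, and Sox9 read 43.55 and 134.8 and was called higher at 3, 6 and 12 h. At 0 h Sox9 lay below Fshr (49.25), which did not pass the filter. Sox9 may thus have passed only through its later signals, which would favour a call of higher. Of the 10 markers tested 1 was higher and none lower at 3 h, 2 and 2 at 6 h, and 3 and 2 at 12 h. Of 6 peritubular markers 2 passed the filter, and their summed signal was 242 to 306 at 0 h, 382 to 470 at 3 h, 280 to 306 at 6 h and 294 to 333 at 12 h. Of 7 germ cell markers 2 passed, and the sum, mostly Kit, was 716 to 731, 789 to 846, 514 to 570 and 375 to 465. These sums were highest at 3 h, as were Dusp6, Dusp10 and Dusp16, and their part in the results was not tested. Between 0 and 3 h the mean signal went from 66.95 to 164.4 for Acta2, from 23.95 to 64.65 for Actg2, from 81.3 to 116.6 for Des and from 33.65 to 44.65 for Tagln, and from 24.7 to 15.85 for Myh11 and from 43.7 to 19.8 for Cnn1. Among the germ cell markers it went from 545.5 to 601.5 for Kit and from 23.15 to 29.55 for Ddx4, and no peritubular or germ cell marker tested was called at 3 h. Of 4 Leydig, 6 macrophage and 5 endothelial markers 1, 4 and 1 passed, and their sums were 345 to 552, 650 to 758 and 108 to 224 over all arrays.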

How the data were processed

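RNA of TTE3 cells was measured on 8 one-colour Affymetrix arrays, 2 per time, grouped by the sample titles. The deposited values are linear intensities, 1 per probe set and array, made by the authors; the software behind them is not given in the sources used here. The 2% trimmed mean was 500.16 to 500.18 on all arrays, so the authors had scaled them. Neither scanner files nor detection calls were analysed here.

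Of 22690 probe sets 64 were controls, 20380 had 1 gene symbol, 691 several and 1555 none. Symbols of 20351 were taken from RefSeq (GRCm38.p6) through Entrez identifiers, whether or not the name changed, and 29 were kept as annotated. Each of 12393 genes was read by its probe set of highest mean log2 signal. Signals became log2(signal + 7.9), where 7.9 is the 10th percentile of all values, and genes above the 30th percentile were kept (8675). A mean per time was fitted with limma 3.58.1 in R 4.3.3 (lmFit, eBayes with trend; 4 residual and 9 prior degrees of freedom), with two-sided tests, and a second fit took every probe set. The code was tested on simulated data. Named genes were all members, all other dual-specificity phosphatases, up to 4 called genes per list by size of change, and the 3 genes most like each called member. Genes beyond these (Spry2, Spred2, Ccnd1, Emp1, Ier3, Plaur, Plat, Ppp2ca, Mapk9, Braf, single markers) were chosen after their values were seen. The members and lists were chosen with earlier results of these data known, and the promoter motifs after the values were seen. Alternatives changed the scaling, offset, filter, trend, samples in the fit, replicate block, probe set choice and arrays used. Same-numbered arrays of different times did not deviate together (correlations of -0.011 to 0.122), so the number was not taken as a pairing.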

Additional observations from a re-analysis of the deposited data

Results flagged for a closer look

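Dusp10 was called higher than at 0 h after 3 h and lower than at 0 h after both 6 and 12 h, and the differences between these times passed the test: the log2 change was -1.38 from 3 to 6 h and -1.48 from 3 to 12 h. Dusp16 was called higher at 3 h and lower at 12 h, with a change of -1.42 from 3 to 12 h that passed. The causes were not tested.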

How the results depend on the processing

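Of 624 values of members under the alternatives, 558 kept their direction and side of the threshold, 47 lost a call, 1 gained one and 18 changed sign, all of these in changes that were not called. The sign changed for Dusp3 with the mean of its probe sets (0.003 from 3 to 6 h, -0.09 from 6 to 12 h), for Dusp14 after quantile normalization (-0.0011 from 3 to 6 h), and for Dusp10 from 6 to 12 h after quantile normalization (0.0011) or with a common array median (0.0014). Leaving out 1 array at a time, the range was -0.18 to 0.05, -0.12 to 0.03 and -0.10 to 0.13 for Dusp14 (3 h, 6 h, and 3 to 6 h) and -0.10 to 0.13 for Dusp3 (6 to 12 h). For Dusp2 it was -0.12 to 0.81 at 6 h, -1.40 to 0.91 at 12 h, -0.56 to 0.37 from 3 to 6 h, -1.74 to 0.57 from 6 to 12 h and -1.84 to 0.47 from 3 to 12 h.

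The number of members called was 4 at 6 h, and 1 without the intensity trend, 2 in a fit of only the 2 groups, 2 with the mean over all probe sets, and 0 to 4 without 1 array. At 12 h it was 4, and 2 to 3 without 1 array. From 3 to 6 h it was 4, 1 without the trend, and 2 to 3 without 1 array; from 6 to 12 h it was 2, 1 without the trend, 1 in the fit of only the 2 groups and 1 to 2 without 1 array. It was 3 at 3 h, 4 from 3 to 12 h and 4 by the F test without any 1 array.

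Over all genes the count was 1048 at 3 h, 611 without the trend and 453 to 551 without 1 array; at 6 h 2299, and 1377 to 2078 without 1 array; from 3 to 12 h 1901, and 1008 to 1369 without 1 array. From 3 to 6 h it was 97, and 56 without a filter, 6 without the trend, 61 in the fit of only the 2 groups and 30 to 129 without 1 array. From 6 to 12 h it was 414, and 274, 114, 173 and 154 to 428 in the same order. With the replicate number as a block it was 226 from 3 to 6 h and 703 from 6 to 12 h; the only member call this changed was that of Dusp1 from 6 to 12 h (adjusted p = 0.0454), which it gained. With a common array median the split of higher and lower genes was 184 and 199 from 6 to 12 h (80 and 334 as reported) and 1411 and 770 from 3 to 12 h (826 and 1075). Causes were not tested. The 2 arrays per time and no measure of background limit what low signals such as those of Dusp2 can show.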
